A study of Arabidopsis thaliana with 18 samples.

Results

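Seedlings of the spx1,spx2 mutant of Arabidopsis thaliana were compared with wild type of the Col-0 strain (WT) after both had been grown without inorganic phosphate (Pi) and then given Pi again for 4 h. The comparison rests on 6 of the 18 arrays of the study, 3 of the resupplied mutant and 3 of resupplied WT, chosen by their labels, and on all 22746 probe sets that are not array controls. Seedlings of both genotypes were 7 days old and were sampled whole, and the labels call the 3 arrays of a group biological replicates. Beside the resupplied groups the study holds 3 arrays of each genotype grown in complete medium, which contains Pi, and 3 of each grown in medium lacking Pi, each labelled from 3 ug of total RNA. The labels call the mutant a double mutant and do not give its alleles. The probe sets of SPX1 and SPX2 themselves were not analysed here, so the loss of their transcripts was not checked.

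Plants that run short of Pi switch on a set of genes for Pi uptake, Pi recycling and the replacement of phospholipids, driven largely by the transcription factor PHR1. SPX1 and SPX2 are nuclear proteins with an SPX domain, which senses the Pi status of the cell through inositol phosphates, and when Pi is plentiful they hold PHR1 away from its target promoters. Resupply of Pi to starved plants is therefore used to follow how fast these genes are turned off, and the comparison asks what the absence of both SPX proteins does to that recovery.

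The arrays were Affymetrix ATH1 expression arrays, and each value is a deposited log2 signal. No array gives a read depth, and the 3 arrays per group limit the precision. In a principal component analysis of the 6 resupplied arrays, the first component held 80% of the variance and separated the genotypes, with WT arrays at -34.7 to -26.8 and mutant arrays at 20.5 to 37.6. Mutant replicate 1, at 20.5, lay nearest to WT and stood apart from mutant replicates 2 and 3 on the second component, which held 7%. The polyadenylated spike-in control dap read 9.56 to 9.74 in resupplied WT and 10.28 to 10.46 in the resupplied mutant, against 10.18 to 10.77 on 9 other arrays, the 3 arrays with low spike-in controls left aside. The other spike-in controls lys, phe and thr were lower in resupplied WT as well. The 3' less 5' signal of actin, a sign of RNA integrity, was 3.40 to 3.55 in resupplied WT and 3.09 to 3.33 in the mutant, without overlap, while those of ubiquitin and GAPDH overlapped. The part of either in the results was not tested. Spike-in level and genotype cannot be told apart among these 6 arrays. Across all probe sets, mutant and WT differed by a median of 0.06 log2 units. The deposited values had been made with RMA, which brings arrays to a common distribution. The array medians were 6.87 to 6.88 in resupplied WT and 6.81 to 6.84 in the resupplied mutant. A small median difference was therefore largely set by the processing, and it cannot show how far the spike-in difference bears on the results.

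After 4 h of resupply the genotypes differed widely. Of the 22746 probe sets, 5249 (23.1%) passed limma's test at an adjusted p under 0.05, 2596 (11.4%) higher and 2653 (11.7%) lower in the mutant. Larger changes were mostly falls: 748 probe sets (3.29%) differed at least 2-fold, of which 193 (0.849%) were higher and 555 (2.44%) lower in the mutant. Without overlap between the 3 mutant and the 3 WT arrays, 6462 probe sets (28.4%) were higher and 4829 (21.2%) lower. With each array centred on its median, 55.7% of the called probe sets were higher, against 49.5% as deposited. The number of calls depended on single arrays, since it came to 3432 without WT replicate 1, 3437 without WT replicate 3, 3403 without mutant replicate 2 and 3311 without mutant replicate 3. Without these arrays in turn the higher calls numbered 1543, 1581, 1523 and 1561, and without mutant replicate 3 the lower calls numbered 1750. The total was 5339 without mutant replicate 1. At least 735 of the 748 calls of 2-fold or more were called with the same sign when any one of the 6 arrays was left out. In whole seedlings, fewer cells of a type and less RNA per cell cannot be told apart, which holds for every difference below. The p-values measure the spread between these samples, and nothing in the labels says whether replicates came from separate cultures.

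The genes that starvation had switched on split into opposing sets. Induced probe sets were defined on the 12 arrays outside the comparison, as those at least 2-fold higher without Pi than in complete medium in both genotypes with an adjusted p under 0.05, and they numbered 1231 (5.41%). Of these, 269 (21.9%) were higher in the resupplied mutant and 369 (30.0%) were lower. Both shares lay above those of all probe sets, 11.4% and 11.7%, while the median difference of the class was -0.08, with quartiles at -0.61 and 0.36. The share lower rose with the size of the starvation response, while the share higher did not rise steadily. For mean starvation rises of 1 to 2, 2 to 3, 3 to 4, and 4 or more log2 units, 18.3%, 38.0%, 49.3% and 59.8% were lower. In the same order 20.7%, 17.5%, 32.8% and 31.0% were higher. Among the 87 probe sets with a mean rise of 4 log2 units or more in starvation, 27 (31.0%) were higher in the resupplied mutant, 52 (59.8%) were lower and 8 were not called. Of those 87, 24 were at least 2-fold higher and 49 at least 2-fold lower. Among the 673 with a mean rise of 1 to 2 log2 units, 139 were higher and 123 lower, and 24 and 30 of them by 2-fold or more.

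**Figure D1:**
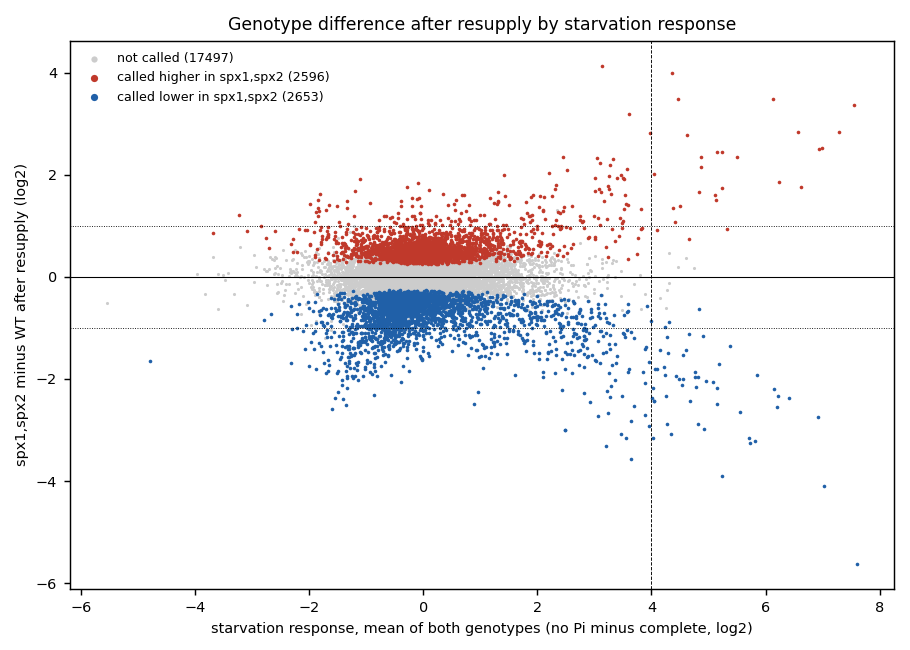
Each point is 1 of 22746 probe sets, with the mean starvation response of both genotypes (log2, without Pi minus complete) on the x axis and the difference between spx1,spx2 and WT after resupply (log2) on the y axis. Red points were called higher in the mutant (2596), blue points lower (2653), dotted lines mark a 2-fold difference, and the dashed line marks a rise of 4 log2 units, beyond which 27 probe sets were higher and 52 lower.

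The induced class as a whole fell after resupply in both genotypes. The median change from starved to resupplied seedlings was -0.84 in WT and -1.05 in the mutant, and 501 of the 1231 fell at least 2-fold in WT against 646 in the mutant. Among the 87 most strongly induced, 62 fell at least 2-fold in WT and 81 in the mutant. These changes share the resupplied arrays with the genotype comparison and are given as a description.

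Starvation-induced genes led the rises. Of the 15 largest rises among named genes, 14 were starvation-induced, and the largest adjusted p among the 15 was 5.65e-05. AT2G04460, a starvation-induced gene used here as a Pi reporter, read 5.13, 4.52 and 4.79 in WT and 8.91, 8.98 and 8.96 in the mutant. The mutant arrays lay far above the WT arrays with no overlap, a difference of 4.14 ± 0.14 (log2 ± SE, limma, adjusted by Benjamini-Hochberg over the 22746 probe sets, adjusted p = 8.26e-13, 17.6-fold). WT had returned to the level of complete medium, where its mean was 4.93, while the mutant remained close to its own starved mean of 9.70. In complete medium the mutant mean of AT2G04460 was 8.05, so this gene was already high in the mutant that had never been starved.

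AT5G20790, another reporter, read 9.01, 8.88 and 8.49 in WT and 12.22, 12.33 and 12.30 in the mutant. All mutant arrays were above all WT arrays, by 3.49 ± 0.16 (adjusted p = 3.73e-11, 11.2-fold). Its starved means were 12.94 in WT and 12.65 in the mutant. Between starved and resupplied seedlings it fell by 4.15 in WT, and the change in the mutant was -0.37 (adjusted p = 0.0752). AT5G20790 too was higher in the mutant in complete medium, by 3.01.

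For other members the genotypes were closer in complete medium. AT5G17340 read 6.22, 5.34 and 4.99 in WT and 8.52, 9.19 and 8.93 in the mutant after resupply, 3.36 ± 0.22 higher in the mutant (adjusted p = 4.18e-09). Before resupply its means were 11.15 and 11.19. It fell in both genotypes, by 5.63 in WT and by 2.31 in the mutant. In complete medium its difference of 0.19 was not called (adjusted p = 0.597). OCT1, an organic cation and carnitine transporter, read 6.88, 6.98 and 6.70 in WT and 9.45, 9.51 and 9.15 in the mutant, a difference of 2.52 ± 0.15 (adjusted p = 8.14e-10). The starved means of OCT1 were 11.83 and 11.89, and it fell by 4.98 in WT and by 2.52 in the mutant. In complete medium OCT1 was 0.62 higher in the mutant (adjusted p = 0.00556).

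The remaining induced genes among the largest rises are named by their locus. AT3G43110 read 6.16 to 6.85 in WT and 8.72 to 9.03 in the mutant, and AT1G08310 6.39 to 6.84 and 8.70 to 9.18. Both were more than 2 log2 units higher in the mutant, by 2.44 ± 0.20 and 2.36 ± 0.15. AT4G23000 (2.30 ± 0.14), AT3G44510 (2.19 ± 0.11), AT4G35750 (1.99 ± 0.10), AT1G23140 (1.97 ± 0.18), AT1G67600 (1.93 ± 0.12), AT5G09570 (1.74 ± 0.16) and AT1G21320 (1.72 ± 0.24) were also higher without overlap. For these 7 genes the genotype difference without Pi lay between -0.12 and 0.04. In complete medium the mutant was higher for AT1G23140 by 1.40, AT1G67600 by 0.85, AT1G08310 by 0.78, AT3G44510 by 0.66 and AT4G23000 by 0.60, all called. For AT1G23140 the difference after resupply was not called apart from that in complete medium (0.57 larger, adjusted p = 0.1), nor was it for AT5G20790 (0.48 larger, adjusted p = 0.120). AT2G37870 differed from them in being higher in the mutant already without Pi, with means of 9.97 and 8.47. It read 8.25 to 8.74 in WT and 10.20 to 10.64 in the mutant after resupply, and its difference of 1.93 ± 0.19 was not called different from that without Pi (0.43 larger, adjusted p = 0.371). AT5G19120 was the one gene of the 15 outside the induced class. It read 8.63, 8.86 and 8.83 in WT and 10.44, 10.75 and 10.66 in the mutant, and fell by 2.03 after resupply in WT and by 0.53 in the mutant.

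**Figure D2:**
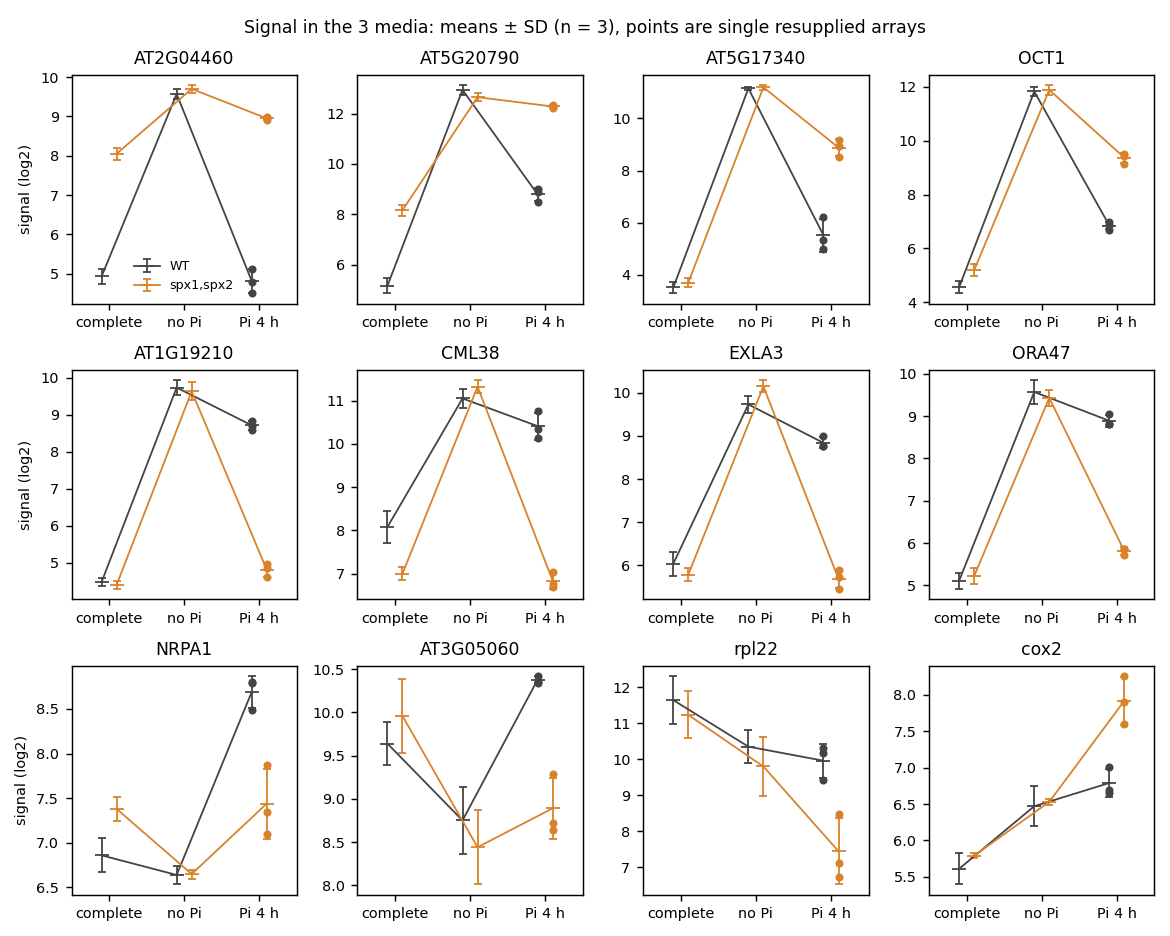
Each panel gives the log2 signal of 1 gene (y axis, with its own range) in complete medium, without Pi and after 4 h of resupply, as group means ± SD (n = 3), WT in grey and spx1,spx2 in orange, with the single resupplied arrays as points. The top row shows genes that were higher in the resupplied mutant than in resupplied WT (AT2G04460 at 8.91 to 8.98 against 4.52 to 5.13 in WT). The middle row shows genes that were low in the mutant and still high in WT (AT1G19210 at 4.61 to 4.97 against 8.59 to 8.84). The bottom row shows a subunit of RNA polymerase I, a nucleolar protein, a plastid ribosomal protein and a mitochondrial oxidase subunit.

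Starvation-induced genes also led the falls. Of the 15 largest falls among named genes, 11 were starvation-induced and 2 starvation-repressed, and the largest adjusted p among the 15 was 0.000632. AT1G19210, an AP2/ERF transcription factor, read 8.84, 8.70 and 8.59 in WT and 4.85, 4.97 and 4.61 in the mutant. The mutant arrays were all below the WT arrays, with a difference of -3.90 ± 0.13 (adjusted p = 9.13e-13, 14.9-fold). Its means without Pi were 9.73 in WT and 9.63 in the mutant, and in complete medium 4.48 and 4.40. From starved to resupplied seedlings it fell by 1.02 in WT (adjusted p = 6.21e-06) and by 4.82 in the mutant.

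CML38, a calmodulin-like calcium sensor, read 10.75, 10.14 and 10.34 in WT and 7.05, 6.77 and 6.69 in the mutant, a difference of -3.58 ± 0.18 (adjusted p = 8.66e-11). It fell by 0.64 after resupply in WT and by 4.49 in the mutant. Its relative CML37 read 7.68, 7.27 and 7.31 in WT and 4.80, 4.75 and 4.77 in the mutant, with no overlap and a difference of -2.65 ± 0.18. EXLA3, an expansin-like cell wall protein, read 8.99, 8.77 and 8.76 in WT and 5.46, 5.89 and 5.73 in the mutant. The difference was -3.15 ± 0.15, and the resupplied mutant was at the mutant mean of complete medium, 5.79. ORA47, an AP2/ERF factor that acts in the wound and jasmonate response, read 9.06, 8.81 and 8.81 in WT and 5.86, 5.87 and 5.71 in the mutant (-3.08 ± 0.14). ORA47 had fallen by 0.68 in WT and by 3.61 in the mutant.

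Further falls were in genes known here by their locus. AT3G02840 read 8.85 to 9.41 in WT and 5.63 to 6.15 in the mutant (-3.22 ± 0.18), and AT4G29780 read 10.89 to 11.16 and 7.57 to 7.97 (-3.16 ± 0.15). AT5G38700 (-2.97 ± 0.18), AT4G27654 (-2.75 ± 0.19), AT1G74450 (-2.53 ± 0.14) and AT2G17660 (-2.38 ± 0.19) were lower without overlap. Some fell on resupply in WT too, where AT2G17660 fell by 2.84 and AT5G38700 fell by 1.64. The resupplied mutant mean of AT4G27654, 6.96, lay above its mean in complete medium, 3.73. Of these, AT5G38700, AT4G27654 and AT2G17660 are members of the list of Pi-responsive reporters. That list of 9 genes was therefore split, with 6 higher and 3 lower in the mutant and none uncalled. Like the other lists, it was chosen with earlier results of these data known, so the number called is no independent result. Its median of 2.36, against 0.06 for all probe sets, does not describe its members in common.

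In the stress factor lists more members were called lower than higher. Of 16 calmodulin-like and U-box genes, 7 were lower, 1 was higher and 8 were not called, with a median of -0.20. Here and for each list below, the shares to read the counts against are the 11.4% higher and 11.7% lower of all probe sets, whose median was 0.06. The U-box ubiquitin ligases of this list that act in stress signalling included PUB23, which read 10.03 to 10.24 in WT and 8.15 to 8.57 in the mutant (-1.70 ± 0.16), PUB22 (-1.07 ± 0.16) and PUB19 (-1.09 ± 0.19). CML23 was lower by a difference of -1.56 ± 0.16, and the 1 higher gene, PUB26 (0.36 ± 0.11), was not called when WT replicate 1, 2 or 3 or mutant replicate 2 or 3 was left out. Of 3 AP2/ERF factors, 2 were lower, AT1G19210 and AT5G52020 (-1.92 ± 0.29), and TINY2 was at 0.48 (adjusted p = 0.0529). Of 7 WRKY and zinc finger stress factors, 3 were lower and 4 were not called. STZ, a zinc finger repressor induced by salt and cold, read 12.42, 12.29 and 12.25 in WT and 10.44, 10.66 and 9.99 in the mutant (-1.95 ± 0.15). In WT, STZ stood at its starved level after resupply, with a change of -0.09 (adjusted p = 0.689), while it fell by 2.14 in the mutant. WRKY53 (-1.19 ± 0.16), a senescence regulator, and WRKY22 (-0.97 ± 0.14), a defence regulator, were lower, and WRKY6, WRKY20, WRKY42 and WRKY47 lay between -0.12 and 0.12. In complete medium STZ (1.23) and WRKY53 (2.01) were called higher in the mutant, and WRKY22 was not called (0.07).

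**Figure D3:**
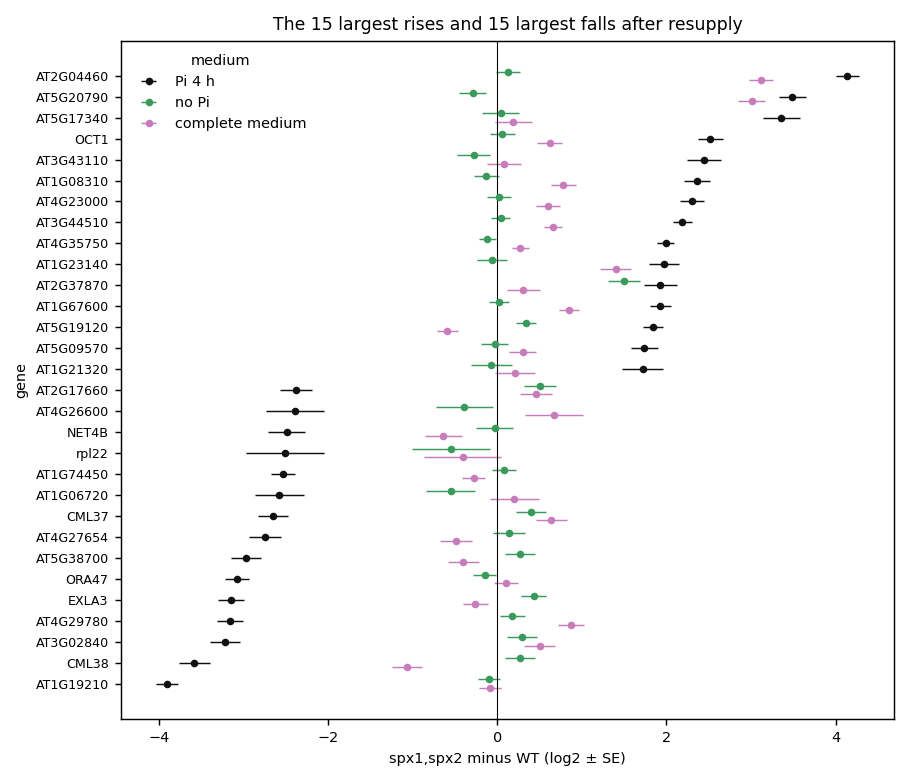
Difference between spx1,spx2 and WT (log2 ± SE of the fit, x axis) for the 15 largest rises and 15 largest falls among named genes (y axis), after 4 h of resupply (black), without Pi (green) and in complete medium (violet). After resupply the differences run from -3.90 (AT1G19210) to 4.14 (AT2G04460), while without Pi only AT2G37870 lies near its resupplied value; in complete medium AT2G04460 (3.12), AT5G20790 (3.01) and AT1G23140 (1.40) have the largest rises of those shown.

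Few probe sets were called between the genotypes before resupply. Without Pi only 189 probe sets (0.831%) were called, 77 (0.339%) with more and 112 (0.492%) with less signal in spx1,spx2. The difference after resupply was itself different from that without Pi for 2638 probe sets (11.6%), above it for 1400 (6.15%) and below it for 1238 (5.44%). Of the 5249 calls after resupply, 2250 also differed from the value without Pi in the same direction, 1151 of them higher and 1099 lower. For the other calls a departure in that direction from the value without Pi was not shown. The calls of these media shared few probe sets: 20 of the 77 higher without Pi were higher after resupply (26.0% of the former, 0.77% of the latter), and 22 of the 112 lower without Pi were lower (19.6% and 0.829%). With opposite signs, 23 of the 112 lower without Pi were higher after resupply (20.5% and 0.886%) and 9 of the 77 higher without Pi were lower (11.7% and 0.339%). Over all probe sets 11.4% were higher and 11.7% lower after resupply. Those 2638 calls came to 1692 without WT replicate 1, 1709 without WT replicate 3, 1715 without mutant replicate 2 and 1751 without mutant replicate 3. The part above 0 was then 877 to 926, and the part below 0 was 815 without WT replicate 1, 817 without WT replicate 3 and 825 without mutant replicate 3. The 77 higher calls without Pi, which share the estimate of spread, came to 51, 46 and 49 without WT resupplied replicate 1, 2 and 3.

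In complete medium the genotypes differed at 4146 probe sets (18.2%), 2293 (10.1%) higher and 1853 (8.15%) lower in the mutant, mostly other ones or with the opposite sign. Of the probe sets higher after resupply, 274 (10.6%) were also higher in complete medium and 388 (14.9%) were lower there. Of those lower after resupply, 461 (17.4%) were higher in complete medium and 139 (5.24%) lower. As shares of the calls in complete medium, these were 11.9%, 20.9%, 20.1% and 7.50%. The difference after resupply departed from that in complete medium at 6302 probe sets (27.7%), above it at 3246 (14.3%) and below it at 3056 (13.4%). For 1727 probe sets the resupply difference was called and departed in the same direction from those in both other media, 822 higher and 905 lower.

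Few genes of the core Pi machinery have a single named probe set here. Of 3 Pi uptake and signalling genes, LPR1, a multicopper oxidase of the root tip response to low Pi, was lower. It read 7.02, 7.03 and 7.00 in WT and 6.55, 6.45 and 6.30 in the mutant, without overlap (-0.58 ± 0.15, adjusted p = 0.00807). Its relative LPR2 was at -0.21 ± 0.18 and the vacuolar Pi transporter gene AT1G63010 at 0.20 ± 0.12, neither called. Of 2 phosphatases, SAL2 was slightly higher in the mutant (0.39 ± 0.12, adjusted p = 0.021) and PAP20 was at -0.07 ± 0.14. SAL2 was not called without WT replicate 2 or 3 or without mutant replicate 2 or 3.

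AT1G73600, a phosphoethanolamine methyltransferase of phosphatidylcholine synthesis, was starvation-repressed. It was the only gene of the lipid list with a single named probe set here, so it does not stand for that list. AT1G73600 read 8.06, 7.99 and 8.37 in WT and 6.41, 6.05 and 7.00 in the mutant after resupply. All mutant arrays were below WT (-1.65 ± 0.21, adjusted p = 2.12e-05). From starved means of 5.27 and 4.94 it rose by 2.87 in WT and by 1.54 in the mutant, toward 9.55 and 10.25 in complete medium. Of 5 GARP-type factors of nitrate and Pi crosstalk, AT1G68670 was higher, at 8.72 to 8.90 in WT and 9.46 to 9.56 in the mutant (0.70 ± 0.10). AT1G49560 was lower (-0.86 ± 0.13), and AT1G25550, AT3G25790 and AT4G37180 were not called.

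Cold and dehydration protection genes were lower in the resupplied mutant, 4 of 6 with a median of -0.84. LTI30, a dehydrin, read 12.87, 12.79 and 12.77 in WT and 12.05, 11.77 and 11.71 in the mutant (-0.97 ± 0.18). COR47, also a dehydrin, differed by -1.06 ± 0.16, the chloroplast protectant COR15B by -0.93 ± 0.23 and the cold- and clock-regulated COR27 by -0.74 ± 0.18. The same genes had been higher in the mutant in complete medium, with a list median of 3.55 there against 0.11 without Pi. In complete medium LTI30 was at 8.62 in WT and 12.05 in the mutant, so the genotypes changed order between that medium and resupply. COR15A (-0.22 ± 0.27) and AT4G30650 (-0.42 ± 0.16) were not called after resupply.

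Anthocyanin genes were lower too, 4 of 6 with a median of -1.01. DFR, the reductase that commits flavonoids to anthocyanin, read 11.64, 10.81 and 11.23 in WT and 9.91, 10.05 and 10.01 in the mutant (-1.24 ± 0.18, adjusted p = 7.55e-05). The glycosyltransferase genes AT4G14090 (-1.14 ± 0.19) and UF3GT (-0.99 ± 0.18) and the acyltransferase gene AT5MAT (-1.03 ± 0.20) were lower. For none of the 6 was the difference after resupply called apart from that without Pi, where the list median was -0.58. In complete medium the list median was 1.11. There AT4G14090 (1.37), UF3GT (1.17) and AT5MAT (0.75) were called higher in the mutant, and DFR was not called (-0.17). DFR rose on resupply in both genotypes, by 1.23 in WT and by 0.92 in the mutant. Of 8 jasmonate genes only THI2.2, a thionin, was called (0.55 ± 0.18, adjusted p = 0.0299), and without WT replicate 1, 2 or 3 no member was called. JRG21, a jasmonate-regulated oxygenase, read 9.51, 9.56 and 9.09 in WT and 10.08, 10.98 and 9.49 in the mutant, which overlapped. By limma's test, 0 of 10 low-oxygen genes were called (median 0.09), although the list median in complete medium was -2.20. At an unadjusted p under 0.05, 1 of the 10 was higher and 1 lower. With the 6 resupplied arrays alone 2 were called higher and 1 lower, against 4256 and 3838 of all 22746 probe sets. The largest change was that of AT1G19530, at -1.04 ± 0.41 (adjusted p = 0.0737), which was called with the replicate block (adjusted p = 0.0354) and with array weights (-0.99, adjusted p = 0.0105). Also 0 of 3 iron genes, 0 of 5 genes of the unfolded protein response and 0 of 2 heat shock genes were called, with medians of -0.02, 0.06 and 0.23. Of these 0 passed at an unadjusted p under 0.05, and 1 heat shock gene was called higher with the 6 resupplied arrays alone. The clock gene GI read 9.27 to 9.30 in WT and 9.25 to 9.41 in the mutant (0.04 ± 0.12). SAG101, a lipase-like regulator of salicylate defence, was the only member of its list with a single named probe set and was lower (-0.90 ± 0.18).

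Of a longer list of genes of the nucleolus, where ribosomes are built, only 4 have a single named probe set here. All 4 were lower in the resupplied mutant, with a median of -1.23, and the rest of the list was not examined. For 3 of the 4 the difference was also below that without Pi, and for NRPA2 it was not called apart (-0.48, adjusted p = 0.108). AT3G05060, a nucleolar protein of the NOP56/58 type, read 10.34, 10.42 and 10.37 in WT and 9.29, 8.64 and 8.72 in the mutant (-1.49 ± 0.24, adjusted p = 0.0002). It rose by 1.63 in WT, and in the mutant its change was 0.45 (adjusted p = 0.149). NRPA1, the largest subunit of RNA polymerase I, read 8.79, 8.49 and 8.80 in WT and 7.87, 7.34 and 7.10 in the mutant (-1.25 ± 0.16). NRPA1 rose in both genotypes, by 2.06 in WT and by 0.79 in the mutant. The second subunit NRPA2 differed by -0.56 ± 0.13, and REBELOTE, a nucleolar protein acting in floral meristems, by -1.21 ± 0.20. Mutant replicate 1 was the highest of the mutant arrays for all 4 genes, and the list median without it was -1.42. In complete medium the list median was 0.44, with NRPA1 (0.52) and REBELOTE (0.82) called higher in the mutant and AT3G05060 and NRPA2 not called.

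Outside that list, AT1G06720 was among the 15 largest falls, as a starvation-repressed gene. It read 8.08, 7.63 and 8.18 in WT and 6.09, 5.03 and 5.03 in the mutant (-2.58 ± 0.29, adjusted p = 3.71e-06). In WT it had risen by 2.11 from a starved mean of 5.86 and passed the mean of complete medium, 7.07. In the mutant its change was 0.08 (adjusted p = 0.85). AT4G26600 (-2.39 ± 0.34), AT1G79150 (-1.94 ± 0.19), AT4G02400 (-1.93 ± 0.18) and AT4G25730 (-1.93 ± 0.22) had means in resupplied WT above those of complete medium, and in the mutant below them. AT4G26600 was dim in the mutant, at 3.82 to 4.83, so its fold may be understated.

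Of 19 plastid genes for the ribosome and RNA polymerase, 8 were lower in the resupplied mutant and none higher, with a median of -0.82, against 11.7% lower over all probe sets. They comprised 7 ribosomal protein genes and 1 of the 4 polymerase genes. With the 6 resupplied arrays alone, 13 of the 19 were called lower, against 3838 of all 22746 probe sets. rpl22, a plastid ribosomal protein, read 10.30, 9.42 and 10.17 in WT and 8.49, 6.75 and 7.12 in the mutant (-2.51 ± 0.46, adjusted p = 0.000632). The mutant arrays were all lower but spread widely, with replicate 1 the highest. rpl14 (-2.37 ± 0.48), rpl16 (-2.25 ± 0.60), rps3 (-1.90 ± 0.34), rpl36 (-1.69 ± 0.37), rps19 (-1.69 ± 0.37) and the polymerase gene rpoA (-1.19 ± 0.24) were lower as well. The other polymerase genes rpoB (0.24), rpoC1 (-0.16) and rpoC2 (-0.44) were not called. The eighth was rpl33 (-1.33 ± 0.21), which lies beside psaJ in the order of the plastid genome in RefSeq. All the others called lie in 1 run of that order, from rpoA to rps19. Of the listed genes outside that run only rpl33 was called in the main fit. The share called therefore does not describe plastid ribosome and polymerase genes in general. For 3 of the 19, rps3 included, the difference after resupply was called below that without Pi. For rpl22 (adjusted p = 0.0572), rpl14 (0.106) and rpl16 (0.361) it was not called apart by the same limma model.

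Of the 45 plastid photosynthesis genes 3 were lower and none higher, with a median of -0.17. In this main fit the share was smaller than the 11.7% lower among all probe sets. atpH, a subunit of the ATP synthase, read 8.95, 9.22 and 8.52 in WT and 7.44, 6.76 and 6.72 in the mutant (-1.92 ± 0.44). Its difference was not called apart from that without Pi (-1.06, adjusted p = 0.319 by limma), as for all but 1 of the 45. psaJ of photosystem I (-0.80 ± 0.24) and petB of the cytochrome complex (-0.48 ± 0.13) were lower, and psbK (0.99 ± 0.37) and psbI (0.89 ± 0.35) were not called. psaJ was not called without WT replicate 1 or 2 or mutant replicate 2 or 3, and petB without WT replicate 2 or mutant replicate 1. Without the 3 arrays with low spike-in controls, none of them resupplied, the count of lower genes rose to 17. It was 17 with the 6 resupplied arrays alone as well. Over all 22746 probe sets these fits called 3224 and 3838 lower, so the share of the photosynthesis genes was then the larger one. The count was 1 without WT replicate 2. Without WT replicate 1, 2 of the 45 genes were called higher and 2 lower.

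**Figure D4:**
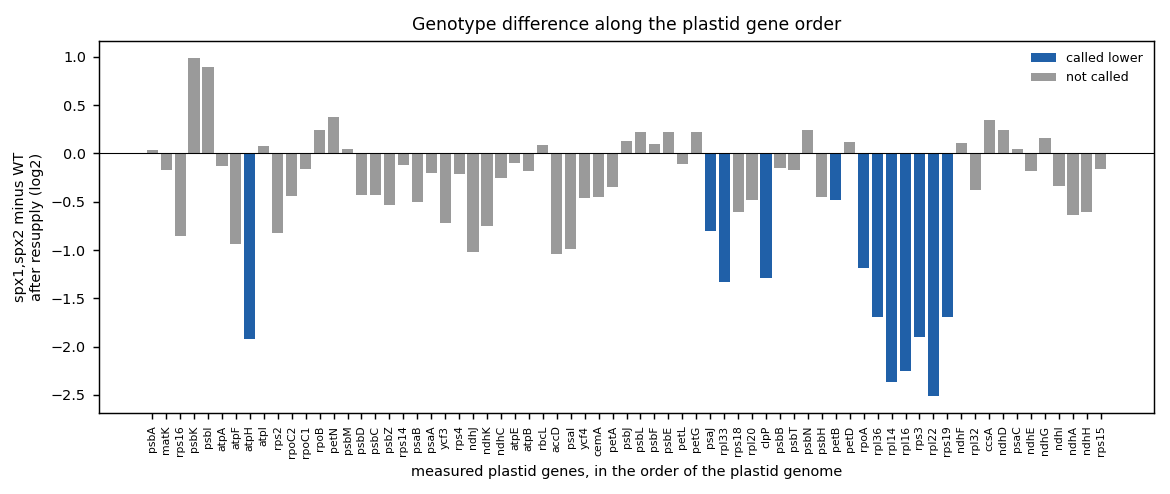
Difference between spx1,spx2 and WT after resupply (log2, y axis) for the measured plastid genes, placed in the order of the plastid genome (x axis, not to distance), with genes called lower in blue and uncalled genes in grey. The longest run of blue bars is rpoA to rps19, with rpl22 at -2.51, and none of the genes was called higher.

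Mitochondrion-encoded genes went the other way, 9 of 16 higher in the resupplied mutant, none lower, with a median of 0.43 and a range of 0.16 to 1.13. cox2, a subunit of cytochrome c oxidase, read 7.01, 6.69 and 6.65 in WT and 7.60, 8.26 and 7.90 in the mutant (1.13 ± 0.16, adjusted p = 5.35e-05). The cytochrome c maturation genes ccb206 (1.13 ± 0.19) and ccb452 (0.95 ± 0.12) and the complex I gene nad1 (0.75 ± 0.14) were higher too. The count was 5 without mutant replicate 2, where 1523 of all 22746 probe sets were called higher. It was 12 with the 6 resupplied arrays alone, where 4256 of all were called higher. Of 18 nuclear photosynthesis and chlorophyll genes, 3 were higher and 2 lower, near the shares of all probe sets (11.4% and 11.7%). The light-harvesting genes LHCB4.2 (0.59 ± 0.10) and LHCB4.3 (0.59 ± 0.14) were among the higher ones, and HEMA2 (-0.79 ± 0.17) and CHLI2 (-0.31 ± 0.11), of tetrapyrrole synthesis, were the lower ones. Among the fits with 1 array left out, CHLI2 kept its call only without mutant replicate 1. It was not called with the replicate block (adjusted p = 0.0528) or with each array centred on its median (-0.27, adjusted p = 0.111).

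Autophagy genes were modestly higher, 7 of 10 with a median of 0.48. ATG8 proteins coat the membranes that engulf cell contents, and ATG8F read 9.30, 9.32 and 9.16 in WT and 9.94, 9.82 and 10.04 in the mutant (0.67 ± 0.13, adjusted p = 0.0014). ATG8B (0.65 ± 0.18), ATG8E (0.64 ± 0.20) and ATG8D (0.53 ± 0.14) were higher. ATG8F fell in both genotypes on resupply, by 1.84 in WT and by 0.98 in the mutant. The count rested on single arrays, since it was 1 without mutant replicate 3 and 4 without WT replicate 2 or without WT replicate 3. ATG8F was called whichever array was left out, while ATG8E was not called without WT replicate 1, 2 or 3, ATG8D without WT replicate 2, ATG8B without WT replicate 3, and all of these 3 without mutant replicate 3.

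Root hair expansins were higher in the resupplied mutant. EXPA7, which loosens the wall of growing root hairs, read 8.16, 8.28 and 8.31 in WT and 9.31, 9.54 and 9.63 in the mutant (1.25 ± 0.20, adjusted p = 0.000224). EXPA18, with the same site of expression, read 8.70 to 8.85 and 9.84 to 9.99 (1.13 ± 0.22). These are the 2 root hair markers with a single named probe set here. Their mean level was 8.43 to 8.58 in WT and 9.58 to 9.77 in the mutant. The root marker PYK10 was not called (-0.22 ± 0.14). Of the 2 green leaf markers, PRK was lower (-0.46 ± 0.11) and RCA was not called (-0.10 ± 0.10), with mean levels of 12.81 to 12.92 and 12.54 to 12.63. RCA at 13.53 to 13.70 and PYK10 at 13.14 to 13.59 show leaf and root transcripts in every resupplied array, as labelled for whole seedlings. Whether the share of root hair cells bears on the expansin result was not tested.

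Among 40 expansins and wall acetylation genes, 7 were higher, the root hair expansins included, and 3 were lower, not far from the 11.4% and 11.7% of all probe sets. The expansin-like EXLA3 and its relative EXLA1 (-1.16 ± 0.16) were 2 of the lower ones, while EXLB1 (0.71 ± 0.15) and EXPB1 (0.70 ± 0.15) were higher. Of 12 auxin response genes, GH3.3, an auxin-conjugating enzyme, was higher at 6.01 to 6.34 in WT and 6.85 to 7.25 in the mutant (0.87 ± 0.13). IAA31, a repressor of auxin responses, was higher from a dim level of 3.96 to 4.07 in WT to 4.62 to 5.24 in the mutant (0.87 ± 0.14).

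Sugar, glycosylation and redox genes changed one by one. Of 19 sugar and starch genes, the sugar transporters SWEET4 (0.92 ± 0.21) and SWEET10 (0.61 ± 0.19) were higher. APL4, a subunit of ADP-glucose pyrophosphorylase in starch synthesis (-1.08 ± 0.20), and the branching enzyme SBE2.2 (-0.58 ± 0.11) were lower. Of 47 UDP glycosyltransferases, 9 were higher and 1 lower with a median of 0.06, against 11.4% and 11.7% of all probe sets. They included UGT76E12 (0.76 ± 0.26), UGT72E3 of monolignol glycosylation (0.72 ± 0.12), UGT85A5 (0.64 ± 0.16) and, lower, UGT73D1 (-0.78 ± 0.16). UGT76E12 overlapped between the genotypes, at 6.08 to 6.74 in WT and 6.40 to 7.64 in the mutant. Of 14 glutathione transferases GSTU20 was higher (0.51 ± 0.09) and GSTU27 (-0.56 ± 0.12) and GSTL3 (-0.35 ± 0.09) were lower. Of 7 glutaredoxins, GRX480, a regulator of defence transcription, was 1.93 higher in the mutant in complete medium. After resupply it was lower, at 7.82 to 7.95 in the mutant and 9.14 to 9.67 in WT (-1.52 ± 0.19). ROXY2, an anther development gene, was higher (0.76 ± 0.25, adjusted p = 0.0335), a call lost when any one array other than mutant replicate 1 was left out. Of 29 serine carboxypeptidase-like genes, scpl30 (0.92 ± 0.22), scpl40 (0.71 ± 0.17) and scpl26 (0.46 ± 0.12) were higher and the dim scpl16 (-0.37 ± 0.13) was lower. Single arrays decided several of these smaller calls. SWEET10 lost its call without WT replicate 1 or 2 or mutant replicate 2 or 3, UGT76E12 without WT replicate 2 or 3 or mutant replicate 1 or 2, and GSTL3 without WT replicate 1 or mutant replicate 2. scpl26 lost it without mutant replicate 3, and scpl16 without any one of the 6 arrays.

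**Figure D5:**
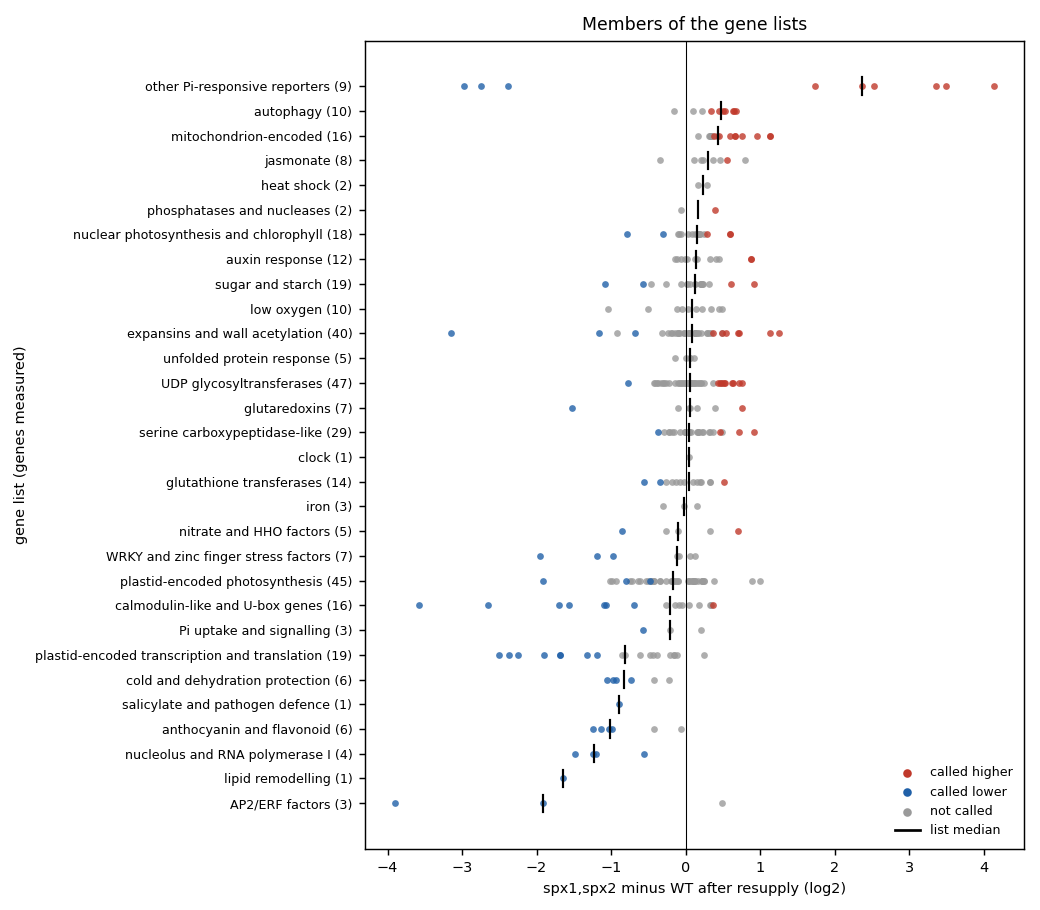
Each point is 1 gene of a list, with its difference between spx1,spx2 and WT after resupply (log2) on the x axis, red where called higher, blue where called lower and grey where not called, and a black bar at the list median. The 9 Pi-responsive reporters lie at both ends (-2.97 to 4.14). The 4 nucleolar genes with a single named probe set are all lower, and the 16 mitochondrion-encoded genes are all above 0.

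Starvation-repressed probe sets, defined as the induced ones but with a fall, numbered 747 (3.28%). Of these 99 (13.3%) were higher and 182 (24.4%) lower in the resupplied mutant, with a median of -0.05, and 15 and 78 of them by 2-fold or more. On resupply 180 rose at least 2-fold in WT and 138 in the mutant. The largest falls among named ones were AT1G06720, rpl22, rpl14 and AT4G08310 (-2.12 ± 0.27). The largest rises were AT5G51440 (1.42 ± 0.12), PDF1.4 of the defensin family (1.40 ± 0.16), AT4G28240 (1.36 ± 0.14) and AT2G20670 (1.29 ± 0.26). AT5G51440 read 6.58, 6.63 and 6.47 in WT and 7.90, 8.14 and 7.91 in the mutant, without overlap, and its means in complete medium were 8.27 and 7.75. The count of 99 became 65 without mutant replicate 3.

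Most calls, 2228 higher and 2102 lower, lay in the 20768 probe sets of neither class, though only 72 of the former and 290 of the latter reached 2-fold. The largest fall there was NET4B, an actin-binding protein of the NETWORKED family. It read 8.40, 7.95 and 8.28 in WT and 6.31, 5.32 and 5.53 in the mutant (-2.49 ± 0.22, adjusted p = 2.26e-07). AT3G29075 followed with -2.31 ± 0.37. The largest rises after AT5G19120 were AT5G36270 (1.61 ± 0.21), M17, AT1G11920 (1.55 ± 0.13), AT2G40250 (1.54 ± 0.12), AT4G14060 (1.49 ± 0.15), AT5G24313 (1.43 ± 0.24) and AT5G26080 (1.39 ± 0.15). M17, a late embryogenesis abundant protein, read 3.01, 2.90 and 2.81 in WT and 5.85, 3.66 and 4.01 in the mutant (1.60 ± 0.38, adjusted p = 0.00456), so that mutant replicate 1 carried much of its difference. AT5G26080 (mean 3.67) was dim in WT, as was PDF1.4 above (4.18), so their folds may be understated. M17 was dim in WT too, but with 1 array carrying much of its difference its fold may err either way.

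Of the 22746 probe sets, 9233 have no single named gene here, and 2270 of them were called, 103 higher and 243 lower by 2-fold or more. They include the 2 largest falls of all. Probe set 253259_at read 9.84, 9.45 and 9.70 in WT and 4.02, 4.17 and 3.95 in the mutant, a difference of -5.62 ± 0.25 (adjusted p = 3.15e-11) from starved means of 11.58 and 11.85. The mutant was at the level of complete medium, 4.05, and dim, so the fold is a low estimate. For probe set 255937_at, also dim in the mutant at a mean of 3.43, the difference was -4.10 ± 0.20. Probe set 258856_at read 8.48, 7.90 and 7.52 in WT and 11.85, 12.01 and 12.05 in the mutant (4.00 ± 0.17), and 258158_at was 3.49 ± 0.15 higher. All 4 were starvation-induced.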

How the data were processed

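The series holds 18 ATH1 arrays in 6 groups of 3, defined by genotype and medium in the labels. The deposited values are log2 signals per probe set that the authors made with RMA, per the submitters' processing notes. Software version, probe-set definition and log base: not given in the sources used here. Base 2 was taken from the range of the values. The table was used as deposited, without a further normalization or filter, and 64 control probe sets were left out.

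One linear model with a mean per group was fitted to all 18 arrays with limma 3.58.1 in R 4.3.3, so that the groups shared 1 estimate of the spread. P-values were adjusted by Benjamini-Hochberg over 22746 probe sets and called under 0.05, and the fit was tested on simulated data. A signal under 4.397, the smallest first quartile of any array, was called dim. Probe sets were named through the platform annotation and RefSeq symbols: 13513 have 1 gene, of which 13436 matched RefSeq, 503 have several, and 8730 are not named here. For a gene with several probe sets the brightest was used. Named genes were called without overlap between the genotypes and comprised the 15 largest rises and falls, the 8 largest each way among those also differing from both other media, the 6 largest each way among starvation-induced ones, and up to 4 called members of each of 30 lists with a measured member, or, with none called, its most changed member. List members did not need to lack overlap. The 8 largest each way outside both starvation classes and the 4 largest each way among repressed ones were added after seeing the data, as were the largest unnamed probe sets. The members and lists were chosen with earlier results of these data known. The cytosolic ribosomal protein and cell cycle lists, and the phloem, xylem, guard cell, shoot epidermis and seed marker lists, had no named member. A planned motif count was not made, since no promoter sequences were used here. Alternatives were a replicate block, array weights, centring, quantile normalization, a filter on dim probe sets, limma-trend, the 6 resupplied arrays alone, leaving out single arrays or the 3 arrays with low spike-in controls, and stricter starvation classes.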

Additional observations from a re-analysis of the deposited data

Results flagged for a closer look

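The genotype difference after resupply differed from that without Pi at 2638 probe sets, by the interaction term of the same limma model. Among the named genes it did so for 80. Each value below is the difference after resupply less the difference without Pi, on the log2 scale, and no cause was tested.

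In 42 of these genes the value was below 0. The mutant fell more or rose less than WT from starvation to resupply, or fell where WT did not. Of the starvation-induced ones, the calmodulin-like genes CML38 (-3.84), CML37 (-3.05) and CML23 (-1.13), the ubiquitin ligase PUB23 (-1.76) and the expansin-like EXLA3 (-3.58) and EXLA1 (-1.50) were below 0. So were the transcription factors AT1G19210 (-3.80), ORA47 (-2.93), AT5G52020 (-2.30), STZ (-2.05) and WRKY22 (-1.45), the glutaredoxin GRX480 (-2.03) and the tetrapyrrole gene HEMA2 (-1.10). The other induced loci were AT3G02840 (-3.51), AT4G29780 (-3.34), AT5G38700 (-3.24), AT4G27654 (-2.89), AT2G17660 (-2.88) and AT1G74450 (-2.61). Of the starvation-repressed ones, AT1G06720 (-2.03), AT4G08310 (-1.85), AT1G73600 (-1.32) and CHLI2 (-0.64) were below 0.

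Outside both classes, the nucleolar genes NRPA1 (-1.27), AT3G05060 (-1.18) and RBL (AT3G55510, -1.03) and the cold protection genes COR27 (-1.18), COR15B (-1.10), LTI30 (-1.01) and COR47 (-0.96) were below 0. The defence genes WRKY53 (-1.57) and SAG101 (-0.84), the plastid genes rps3 (-1.64) and psaJ (-1.37), the starch branching enzyme SBE2.2 (-0.79) and the actin-binding NET4B (-2.46) were too. PYE, an iron regulator, was at -0.74 and was not itself called after resupply. The other loci were AT4G26600 (-2.00), AT3G29075 (-1.73), AT4G02400 (-1.53), AT1G79150 (-1.52) and AT4G25730 (-1.49).

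In 38 the value was above 0. The starvation-induced ones were AT2G04460 (4.00), AT5G20790 (3.78), AT5G17340 (3.33), AT3G43110 (2.72), AT1G08310 (2.49), OCT1 (2.46), AT4G23000 (2.29), AT3G44510 (2.15), AT4G35750 (2.11), AT1G23140 (2.03), AT1G67600 (1.91), AT1G21320 (1.79), AT5G09570 (1.77), AT1G68670 (0.72) and SAL2 (0.71). The repressed ones were AT2G20670 (1.46), AT5G51440 (1.32), AT4G28240 (1.19) and PDF1.4 (0.96). Outside both classes, the expansins EXPA7 (1.45) and EXPA18 (1.26), the auxin response genes IAA31 (1.05) and GH3.3 (0.96) and the mitochondrial cox2 (1.07), ccb206 (1.03), ccb452 (1.0) and nad1 (0.72) were above 0. So were UGT72E3 (1.0), scpl40 (0.96), ATG8F (0.86) and LHCB4.2 (0.56). The other loci were AT5G24313 (1.95), AT5G36270 (1.81), AT4G14060 (1.50), AT5G19120 (1.50), AT2G40250 (1.41), AT1G11920 (1.39) and AT5G26080 (1.36).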

How the results depend on the processing

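Of the 748 calls of 2-fold or more after resupply, 735 to 748 were called with the same sign under each alternative that tested all of them, and 736 of 736 among brighter probe sets. None of the 15 largest rises and 15 largest falls lost its call under an alternative that tested it. Total counts moved more, and the causes were not tested. With array weights the genotype difference after resupply was called for 9266 probe sets (5077 higher, 4189 lower), its departure from the value without Pi for 5843 (3317 above, 2526 below), the difference without Pi for 667 (276 higher, 391 lower), and repressed probe sets higher after resupply for 169. With the 6 resupplied arrays alone 8094 were called (4256 higher), and with the replicate block added to these, a choice made after seeing the data, 8311 (4382 higher). With the replicate block over all 18 arrays the call after resupply was 4890 and that without Pi 125 (45 higher). The labels do not say that a number marks a shared batch. Same-numbered arrays of the genotypes correlated at 0.103, 0.172 and 0.078 in their deviations, not all over 0.1, although each array correlated best with its own number. Centring each array on its median gave 120 higher and 71 lower without Pi. Leaving out 1 resupplied array moved the count after resupply by over 1.5 times for WT replicates 1 and 3 (3432 and 3437) and mutant replicates 2 and 3 (3403 and 3311), and gave 3311 to 5339 calls after resupply (higher 1523 to 2637, lower 1750 to 2702), 1692 to 2886 for the departure from the value without Pi (above 877 to 1474, below 815 to 1412), 46 to 70 higher without Pi, and 65 to 101 repressed probe sets higher. Requiring a starvation change of 2 log2 units left 436 induced probe sets with 325 calls (108 higher, 217 lower). It left 66 repressed ones with 17 calls (9 higher, 8 lower). Lower calls thus did not outnumber higher ones among these 66, unlike among all 747 repressed probe sets (99 higher, 182 lower). These classes are smaller, so their counts cannot be set directly against those of the full classes. GI, uncalled at 0.04, ranged from -0.01 to 0.07 with 1 array left out. Small differences between 3 and 3 arrays, and dim probe sets, are the least certain.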
